A study of Mus musculus with 4 samples.

Results

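The genes Arntl (Bmal1), Arntl2 (Bmal2), Clock and Npas2 make up the positive limb of the molecular clock. They were taken by gene symbol from a table of normalized read counts, where 4 of 37310 genes bear these names. A value in this table is the number of reads on a gene after division by a factor for the library (TMM scaling), and the libraries hold between 21504265 and 23329034 reads on genes. The table comes from mRNA-seq of JM8 mouse embryonic stem cells (mESCs), a line from the C57BL6/N strain, with 2 libraries of the wild-type line and 2 of a Bmal1-/- line. The study asked how the transcriptome of pluripotent cells differs when Bmal1 is lost. All cells were kept undifferentiated, without feeder cells and on gelatin, in serum-free N2B27 medium with LIF and 2 inhibitors (2i). PD0325901 at 1 µM inhibits Mek and CHIR99021 at 3 µM inhibits Gsk3. The Bmal1-/- line is 1 clone made with CRISPR/Cas9 from the JM8 line, in which both alleles carry small insertions or deletions. Each genotype is therefore 1 line, and p-values measure only the spread between these cultures. In the main test (limma) the spread of a gene is estimated in part from other genes of like level. Differences between the lines other than Bmal1 cannot be told apart from the genotype. Genes with a mean value of 10 or more were tested, and a gene counts as called, higher or lower, where its adjusted p is under 0.05.

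In adult tissues the proteins BMAL1 and CLOCK pair through their bHLH and PAS domains, bind E-box sequences and activate transcription, including that of the Per and Cry genes. PER and CRY proteins then repress the pair, while REV-ERB and ROR nuclear receptors repress and activate Arntl, which closes a daily cycle. NPAS2 can take the place of CLOCK and BMAL2 that of BMAL1, and undifferentiated mESCs are known to lack a running daily cycle although they express clock genes.

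The edited site was located first, because it decides what a read count of Arntl can show. The guide matched the mm9 genome at 1 place, on the minus strand at chr7:120424237-120424256. This place lies inside Arntl (ENSMUSG00000055116), which is annotated on the plus strand at chr7:120350979-120457636. The guide is shown with the adjoining PAM, the short sequence that Cas9 requires, in capitals:
Bmal1 guide target: gaaccggagagtaggtcggtGGG
The surrounding coding sequence is given on the plus strand (chr7:120424194-120424296), with the target and PAM in capitals:
Arntl exon 5: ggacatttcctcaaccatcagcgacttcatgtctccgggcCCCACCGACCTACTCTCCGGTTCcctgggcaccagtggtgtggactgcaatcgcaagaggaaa

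In all 3 annotated transcripts the target is in exon 5 (chr7:120424164-120424316, 153 bases), which holds the start of the coding sequence. A break 3 bases from the PAM falls after base 63 of the coding sequence, that is after codon 21 of the 613 to 633 codons of these transcripts. The transcripts of the other positive-limb genes held no close match to the guide. At best 8 of its 20 bases were mismatched in Arntl2, Clock and Npas2, and none of these best matches had a PAM of the form NGG beside it. A count over the whole gene does not read the edited bases, so the mRNA level of Arntl does not check the genotype, and the libraries are called wild-type and Bmal1-/- here by their labels alone.

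The normalized values of Arntl, the targeted gene, were 678 and 733 in wild-type cells, against 556 and 590 in the Bmal1-/- libraries. Arntl mRNA was present in all 4 libraries, and both Bmal1-/- libraries lay below both wild-type libraries. The means were 706 ± 38.6 and 573 ± 24.1 (SD, n = 2 libraries each), so that 81.2% of the wild-type level was present. These values rest on 644 and 690 reads in wild-type and on 592 and 619 reads in the Bmal1-/- libraries. The log2 fold change was −0.30 (95% confidence interval −0.44 to −0.15, SE 0.07, limma adjusted p = 0.0011 after Benjamini-Hochberg correction). Fold changes were fitted on log2(value + 1), a scale on which the change of a gene with few reads comes out too small. In bulk RNA, fewer cells expressing a gene and less RNA per cell cannot be told apart. By RT-qPCR, a PCR measure of mRNA, the study reports that no Bmal1 mRNA was detected in its Bmal1-/- cells. The cause of the difference between this RT-qPCR result and the read counts was not tested. The study also reports frame shifts with early stop codons in both alleles, and no detectable Bmal1 protein by Western blot. None of these measures is among the data used here.

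Arntl2 (ENSMUSG00000040187), the paralog of the targeted gene, lies at chr6:146744577-146782051 on the plus strand. Its normalized values were 24.2 and 23.4 in wild-type and 33.8 and 50.5 in the Bmal1-/- libraries. The wild-type libraries were nearly equal, and replicate 2 of the Bmal1-/- libraries stood well above replicate 1, without overlap between the groups. Only 23 and 22 reads were behind the wild-type values, and 36 and 53 reads behind the others. The summed reads were 45 (exact Poisson 95% interval 32.8 to 60.2) in wild-type and 89 (71.5 to 110) in the Bmal1-/- libraries, intervals that cover counting error only. From means of 23.8 ± 0.608 and 42.2 ± 11.8 (SD, n = 2 libraries each), the log2 fold change was 0.77 (95% confidence interval 0.22 to 1.32, SE 0.26, adjusted p = 0.018 from limma). This call was lost in 6 of 15 alternatives. Without Bmal1-/- replicate 2 the log2 fold change was 0.49 (adjusted p = 0.29 from limma). With all 4 libraries the call ended with quantile normalization (0.51, adjusted p = 0.12), with no filter on low values (adjusted p = 0.10), with a mean of at least 1 (0.060), in limma without the trend (0.066) and in DESeq2 (0.13), and the adjusted p was between 0.0098 and 0.29 in the alternatives.

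Clock (ENSMUSG00000029238), which encodes the partner of BMAL1, lies at chr5:76639992-76733817 on the minus strand. Its normalized values were 1205 and 1112 in wild-type and 1431 and 1430 in the Bmal1-/- libraries. The latter libraries were almost identical and both exceeded the wild-type libraries. With means of 1159 ± 65.8 and 1431 ± 0.225 (SD, n = 2 libraries each), the log2 fold change was 0.30 (95% confidence interval 0.19 to 0.42, SE 0.06, adjusted p = 1.0e-04 from limma). Between 1047 and 1523 reads per library were behind these values, the highest number among the 4 genes.

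Npas2 (ENSMUSG00000026077), the paralog of Clock, lies at chr1:39250576-39420079 on the plus strand. Its normalized values were 25.3 and 17.0 in wild-type and 59.2 and 53.4 in the Bmal1-/- libraries. Both Bmal1-/- libraries were more than double either wild-type library. The reads were few, at 24 and 16 in wild-type and 63 and 56 in the Bmal1-/- libraries. Their sums were 40 (exact Poisson 95% interval 28.6 to 54.5) and 119 (98.6 to 142). The means were 21.1 ± 5.86 and 56.3 ± 4.09 (SD, n = 2 libraries each), and the log2 fold change was 1.40 (95% confidence interval 0.86 to 1.93, SE 0.25, adjusted p = 1.1e-04 from limma). In linear terms Npas2 was 2.63-fold higher, against 1.71-fold for Arntl2 and 1.24-fold for Clock.

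**Figure D1:**
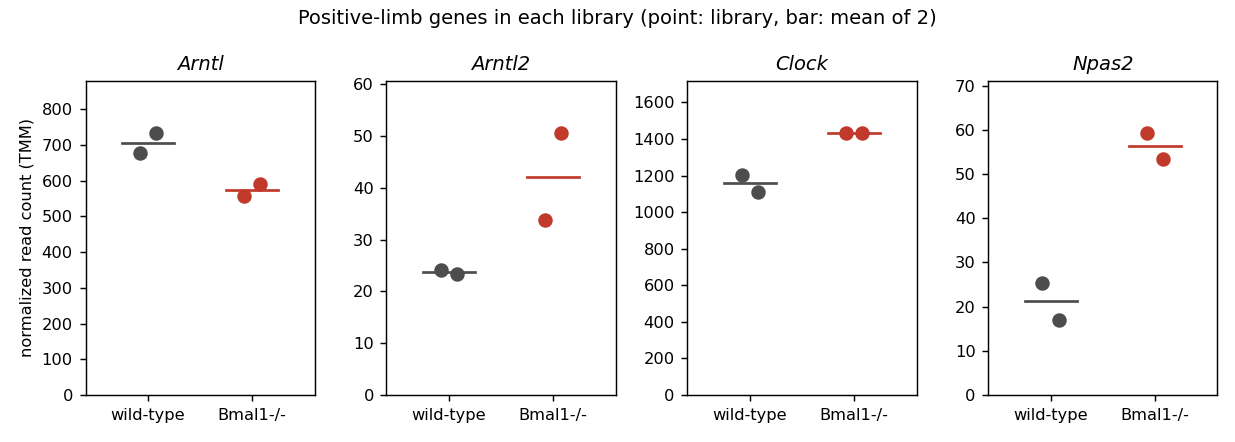
Normalized read count (TMM, linear axes from 0) of the 4 positive-limb genes; each point is a library and each bar the mean of 2 libraries. Arntl was lower and Arntl2, Clock and Npas2 were higher in the Bmal1-/- libraries, with no overlap between groups.

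Of the 4 genes, 3 were higher with an adjusted p-value under 0.05, against 24% of the 14510 genes tested, and 1 was lower, against 28.6%. In either direction 4 of 4 were called, against 52.6% of all genes tested. These counts include Arntl2, whose call was lost in 6 alternatives, among them DESeq2, where 3 of the 4 genes and 5226 genes in all were called. Both groups were also free of overlap for 4 of 4 genes, as they were for 76% of all genes tested. A call by itself therefore sets these genes little apart from the transcriptome. Only Npas2 also passed 2-fold, against 7.21% of all genes in either direction and 5.75% in the upward direction. The split of all calls depended on the scaling of the libraries: 3488 genes were higher and 4151 lower with the authors' TMM values, but 4203 higher and 3193 lower with equal library totals. Past 2-fold, 835 genes were higher and 211 lower, which became 593 and 384 with quantile normalization. The direction of each of the 4 genes was the same under every scaling tried.

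Genes of low level passed 2-fold upwards more often than others, and Arntl2 and Npas2 belong to them. Among the 4024 genes tested with a mean value under 100, 14.9% were past 2-fold and higher, against 2.26% of the 10486 genes with a mean of at least 100. The log2 fold change of Npas2 was at percentile 96.8 of all genes tested and that of Arntl2 at percentile 91.4. Clock stood at percentile 77.7 and Arntl at percentile 18.1.

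**Figure D2:**
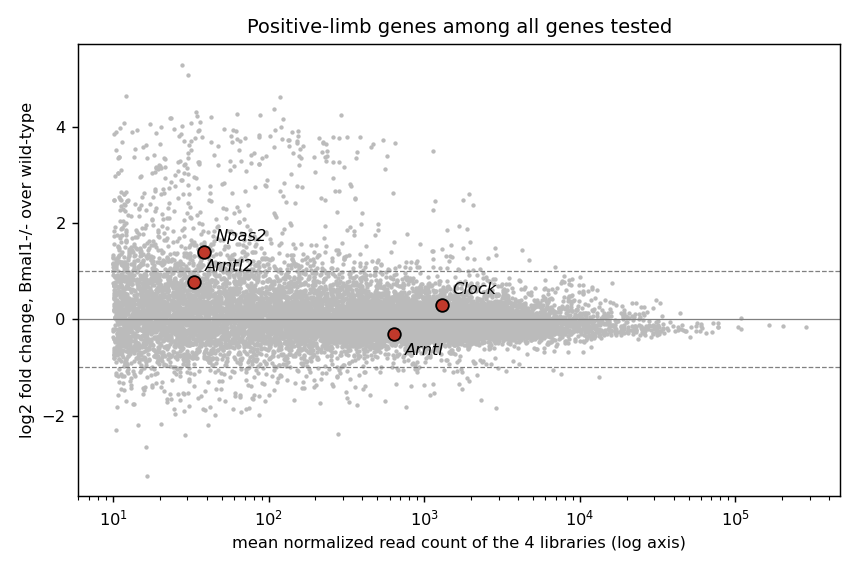
Log2 fold change against mean normalized read count (log axis) for the 14510 genes tested (grey points), with the 4 positive-limb genes in red and dashed lines at 2-fold. Npas2 lies above the upper 2-fold line (1.40), Arntl2 (0.77) and Clock (0.30) between 0 and that line, and Arntl (−0.30) below 0.

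**Figure D3:**
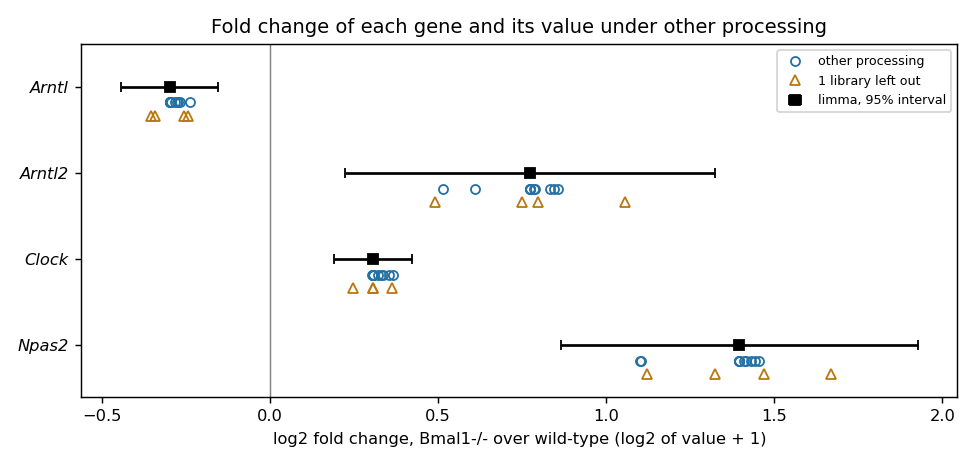
Log2 fold change of each gene with its 95% confidence interval from limma (squares), under other processing (circles) and with 1 library left out (triangles). No value changed sign, and the values of Arntl2 spread from 0.49 to 1.06.

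To compare levels between genes, the normalized read counts were divided by the length of all annotated exons in kb. The lengths are from the GENCODE annotation of NCBIM37, while the annotation and the counter behind the deposited counts are not given in the sources used here, which bears on every per-kb level, order and ratio below. On this per-kb scale Arntl had a level of 232 and 251 in wild-type and 190 and 202 in the Bmal1-/- libraries. Clock had a per-kb level of 136 and 126 in wild-type and 162 in both Bmal1-/- libraries. In both genotypes the order of per-kb levels was Arntl, Clock, Arntl2, Npas2. The first 2 stood at percentiles 61.9 and 52.7 of the per-kb levels of all genes tested. Arntl2, at 7.99 and 7.71 in wild-type and 11.2 and 16.7 in the Bmal1-/- libraries, stood at percentile 11.6. Npas2, at 5.28 and 3.55 in wild-type and 12.4 and 11.2 in the Bmal1-/- libraries, stood at percentile 8.55. The libraries of neighbouring genes in this order did not overlap in wild-type, whereas Arntl2 and Npas2 overlapped in the Bmal1-/- libraries.

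The paralogs were next expressed relative to the targeted gene within each library, a ratio in which the scaling of the libraries cancels. Per kb, Arntl2 amounted to 3.45% and 3.08% of Arntl in wild-type and to 5.87% and 8.26% in the Bmal1-/- libraries. Although its share was higher in both of the latter, Arntl remained the main mRNA of the pair, at 12.1 times the per-kb level of Arntl2 or more in every library. The mean log2 ratio differed by 1.10 between genotypes. Npas2 amounted per kb to 2.28% and 1.42% of Arntl in wild-type and to 6.50% and 5.53% in the Bmal1-/- libraries. Its log2 ratio to Arntl differed by 1.74, more than that of the other 2 genes. Clock was at 58.8% and 50.3% of the per-kb level of Arntl in wild-type and at 85.2% and 80.3% in the Bmal1-/- libraries, a difference of 0.60 in the log2 ratio. For each of these ratios the groups did not overlap, and the exact permutation test over 2 libraries against 2 (2-sided) gave p = 0.33, the smallest p this design allows. The ratios are therefore given as a description of these libraries, since this test could not pass a threshold.

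**Figure D4:**
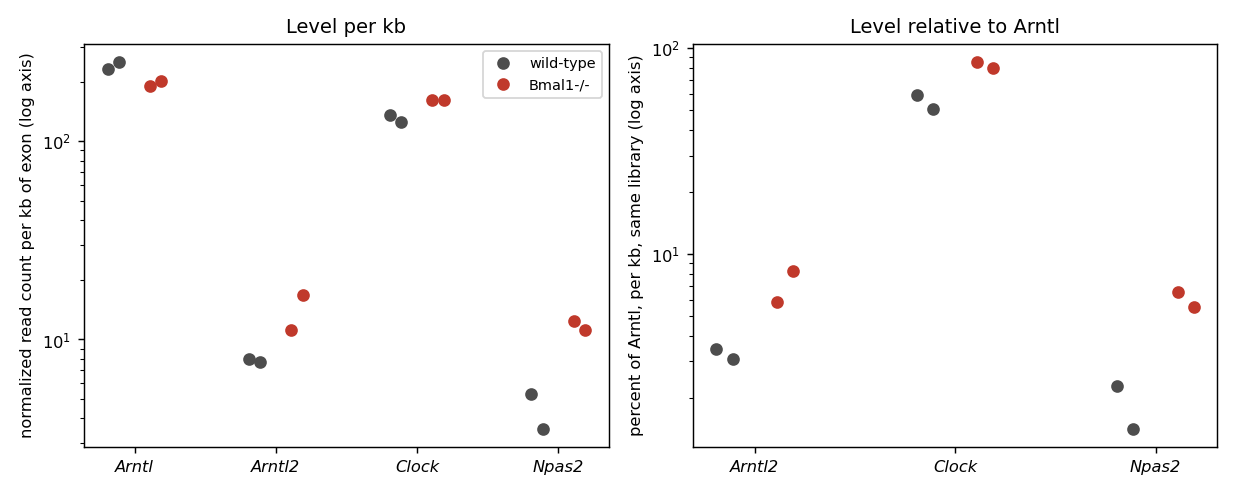
Left, normalized read count per kb of annotated exon (log axis) for each gene and library; right, the per-kb level of Arntl2, Clock and Npas2 as percent of Arntl in the same library (log axis). Grey points are wild-type and red points Bmal1-/- libraries; the red points lie higher for all 3 ratios, with Clock at 80.3% and 85.2% of Arntl.

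Since the heterodimer takes 1 partner from each class, the per-kb mRNA levels were also summed by class. In the Bmal1-/- libraries most of the Arntl class sum is Arntl mRNA from the edited gene. For this line the study reports early stop codons in both alleles and no detectable Bmal1 protein. The sums therefore describe mRNA and not the protein partners available. Arntl and Arntl2 together were 1.69 and 1.99 times Clock and Npas2 together in wild-type, but 1.15 and 1.26 times in the Bmal1-/- libraries. The ratio was thus lower in both Bmal1-/- libraries, with a difference of −0.61 on the log2 scale (exact permutation p = 0.33, the smallest possible, 2-sided). Npas2 contributed 3.72% and 2.74% of its class per kb in wild-type and 7.09% and 6.44% in the Bmal1-/- libraries. Arntl2 contributed 3.33% and 2.98%, then 5.54% and 7.63%. The order of Arntl and Clock depended on the length used. The mean ratio of Clock to Arntl was 54.4% in wild-type with the length of all exons but 121% with the coding length, since much of the annotated Clock transcript is not coding. In the same way the mean ratio of the Arntl class to the Clock class was 1.84 in wild-type and 1.21 in the Bmal1-/- libraries with the length of all exons, but 0.84 and 0.56 with the coding length. Whether the classes lay closer together or further apart in the Bmal1-/- libraries therefore depended on the length, whereas the log2 difference between genotypes (−0.61 and −0.58) did so little.

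Reads of the paralogs could be kept apart at the read length used. Over aligned coding bases, Arntl and Arntl2 were 63.4% identical and Clock and Npas2 65.8%. Other pairs of the 4 genes lay between 61.1% and 64.9%, so this identity sets the paralogs little apart from them. The longest run of bases shared by transcripts of each pair is given to show how short it is against a read of 75 bases:
Arntl and Arntl2: ggatttttgttt
Clock and Npas2: cagcagcagccaccac
No window of 75 bases from any of the 4 genes occurred in a protein-coding transcript of another gene, and no annotated exon of another gene overlapped their exons.

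The promoters of the 4 genes were searched for an E-box (CACGTG, its own reverse complement) and for the half-site of ROR and REV-ERB receptors (AGGTCA, both strands). RefSeq lists 2 promoter entries for Arntl, 3 for Clock and 1 each for Arntl2 and Npas2 (GRCm38.p6, 250 bases before to 50 after the start). No entry held the E-box, which occurs in 7.15% of the 32851 promoters of this length. The half-site occurred in 1 entry each of Arntl and Clock, against 16.3% of all promoters, and is shown in capitals because the receptors that bind it are described next:
Arntl promoter: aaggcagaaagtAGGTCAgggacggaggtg
Clock promoter: agctttggcctcTGACCTgacagatgacag
The Arntl copy began 31 bases after the start and the Clock copy 119 bases before it, on the opposite strand (distance −119). These matches are a description of the letters and not of binding.

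Among the genes encoding receptors that act on Arntl, 3 passed the filter on low values. Of these 1 was higher, 1 lower and 1 not called; for this and the following lists, the shares over all genes tested were 24% higher and 28.6% lower. Nr1d2, which encodes the repressor REV-ERB beta, was at 635 and 556 normalized reads in wild-type and at 426 and 496 in the Bmal1-/- libraries, and fell by 0.37 on the log2 scale (adjusted p = 9.98e-04 from limma). Its call was lost in limma without the trend (adjusted p = 0.085) and with no filter on low values, and its adjusted p ranged from 6.6e-07 to 0.085 in the alternatives. Nr1d1, which encodes REV-ERB alpha, had values of 253 and 262, then 249 and 194 (adjusted p = 0.098 from limma). Rora, an activator of Arntl, was at 22.1 and 26.6 in wild-type and at 49.8 and 31.5 in the Bmal1-/- libraries (log2 fold change 0.69, adjusted p = 0.040 from limma). The call for Rora ended in limma without wild-type replicate 1 (log2 fold change 0.56, adjusted p = 0.099), without Bmal1-/- replicate 1 (0.36, adjusted p = 0.45), with quantile normalization (0.42, adjusted p = 0.21), with no filter, with a mean of at least 1, without the trend, and in DESeq2 (adjusted p = 0.19), with adjusted p from 0.017 to 0.45 over the alternatives. Rorb was at 0 in all libraries.

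In the negative limb, all 5 genes were tested, 2 were higher, 0 lower and 3 not called, with a median log2 fold change of 0.40 against −0.03 over all genes tested. Cry1, which encodes a repressor of the BMAL1 pair, was at 654 and 621 normalized reads in wild-type and at 1268 and 1212 in the Bmal1-/- libraries, almost double in each. Cry2 was at 514 and 472, then at 692 and 608. Per1 was the most abundant Per gene, with values of 489 and 374 in wild-type and 481 and 469 in the Bmal1-/- libraries, which overlapped. Per2 and Per3 had values of 9.48 to 31.5 in the 4 libraries, and neither was called.

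The E-box output list comprised 7 genes, 6 of them tested, of which 2 were higher, 1 lower and 3 not called, with a median of 0.31. Tef, a PAR bZIP factor, had values of 1085 and 1082 in wild-type and 1540 and 1529 in the Bmal1-/- libraries (log2 fold change 0.50, adjusted p = 1.1e-07 from limma). Dbp, of the same family, was at 73.7 and 75.4, then at 115 and 91.5 (0.45, adjusted p = 0.025 from limma). The call for Dbp ended without Bmal1-/- replicate 1 (0.29, adjusted p = 0.30 from limma), with quantile normalization (0.27, adjusted p = 0.17), with no filter, with a mean of at least 1, without the trend, and in DESeq2 (adjusted p = 0.15), in a range from 0.012 to 0.30 over the alternatives. Bhlhe40, a bHLH repressor at E-boxes, was at 462 and 551 in wild-type and at 302 and 329 in the Bmal1-/- libraries, and fell by 0.68 on the log2 scale (adjusted p = 2.9e-06 from limma).

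Other bHLH-PAS factors and coactivators numbered 15, with 11 tested, 5 higher, 1 lower and 5 not called (median 0.19). The coactivator gene Ncoa2 was close to 2-fold higher, with values of 1307 and 1235 in wild-type and 2581 and 2552 in the Bmal1-/- libraries (log2 fold change 1.01, adjusted p = 9.1e-13 from limma; 0.97 without wild-type replicate 2). Ncoa1 and Ncoa3 had log2 fold changes of 0.47 and 0.33. The class partners Arnt and Arnt2 had log2 fold changes of 0.31 and 0.69. Hif3a, at −0.70, was called in limma (adjusted p = 0.020) but not in DESeq2 (adjusted p = 0.21). Its call also ended without wild-type replicate 2 (−0.66, adjusted p = 0.052 from limma), without Bmal1-/- replicate 1 (−0.46, adjusted p = 0.21), with no filter, with a mean of at least 1 and without the trend, and over the alternatives adjusted p ran from 0.0059 to 0.21.

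The 20 cofactors and modifiers of the clock proteins were all tested, with 9 higher, 4 lower and 7 not called (median 0.12). Among those higher were the kinase genes Csnk1e (log2 fold change 0.56) and Gsk3b (0.15), the acetyltransferase genes Crebbp (0.50) and Ep300 (0.37), and the histone modifier genes Kmt2a (0.55) and Kdm5a (0.41). The corepressor gene Ncor1 (0.47) and the ubiquitin ligase gene Ube3a (0.34) were higher too. Lower were Hdac3 (−0.32), Stub1 (−0.26), Csnk2b (−0.24) and Ezh2 (−0.14). Some of these calls ended under alternatives, as for Crebbp and Ep300 in limma without the trend (adjusted p = 0.053 and 0.063), and for Stub1, Gsk3b and Ezh2 in DESeq2 (adjusted p = 0.066, 0.056 and 0.090). Gsk3b also lost its call when wild-type replicate 2 (log2 fold change 0.08), Bmal1-/- replicate 1 (0.17) or Bmal1-/- replicate 2 (0.12) was left out, with no filter, with a mean of at least 1 and without the trend. Ezh2 lost its call without Bmal1-/- replicate 1 (−0.10), with equal library totals (−0.08), with quantile normalization (−0.07), with no filter and without the trend, and Ep300 with no filter as well. Over all alternatives the highest adjusted p was 0.27 for Gsk3b, 0.13 for Ezh2, 0.066 for Stub1, 0.063 for Ep300 and 0.053 for Crebbp, and the lowest was 0.0015, 0.0025, 4.1e-04, 8.6e-20 and 2.3e-20 in the same order. Over the 5 lists, 26 of 45 tested genes were called, beside 52.6% of all genes tested, with 19 higher and 7 lower, beside 24% and 28.6%.

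**Figure D5:**
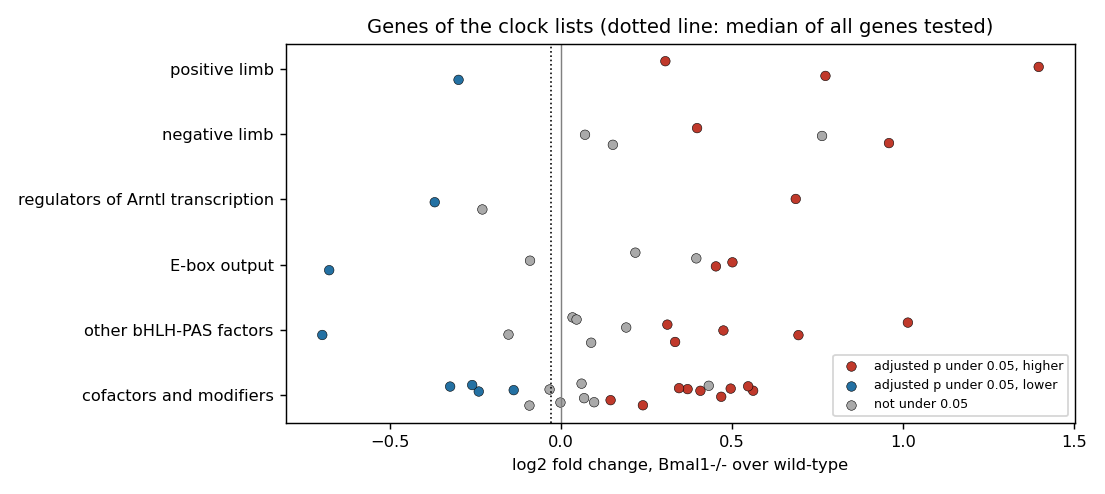
Log2 fold change of the positive-limb genes and of the tested genes of the 5 clock lists (1 point per gene; vertical scatter within a row carries no value). Red and blue points have an adjusted p-value under 0.05 in limma, 19 higher and 7 lower over the lists, and the dotted line is the median of all genes tested (−0.03).

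The genes whose pattern over the 4 libraries lay nearest to each member were found by Euclidean distance of centred log2 values, among 10486 genes with a mean of at least 100. They were Nqo2, 9130401M01Rik and Gtf2e2 for Arntl (distances 0.014, 0.014 and 0.019) and Ankrd17, Epb4.1l2 and Gpc4 for Clock (0.011, 0.017 and 0.017). For Npas2 they were 0610005C13Rik, Glb1 and Prrt3 (0.11, 0.17 and 0.24), and for Arntl2 Tmtc1, Qpct and Dusp10 (0.21, 0.23 and 0.24). With only 4 libraries many genes share a pattern, and ranking by Pearson correlation named other genes for each member.

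On the chromosomes, 15 of the 24 protein-coding genes nearest to the members by start (3 on each side) were tested, with 5 higher and 7 lower, where 24% and 28.6% of all genes tested were. Tead1, next to Arntl, had values of 1618 and 1393 in wild-type and 3079 and 3089 in the Bmal1-/- libraries (log2 fold change 1.04, adjusted p = 6.0e-12 from limma). On the other side of Arntl, Btbd10 had a log2 fold change of 0.20 and, beyond Tead1, Parva of 0.49. Next to Clock, Pdcl2 (−0.96) and Tmem165 (−0.15) were lower and, beyond Tmem165, Srd5a3 (−0.35). Pdcl3 (−0.29) and Rpl31 (−0.25), on either side of Npas2, were lower as well, as was D1Bwg0212e (−0.28), whereas Tbc1d8 (0.34) was higher. Around Arntl2, Tm7sf3 (0.17) was higher and Med21 (−0.20) lower, while Stk38l, Ppfibp1 and, beside Npas2, Chst10 were not called.

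Cell type markers were examined beside these results. All 10 embryonic stem cell markers were expressed in every library, with summed normalized values of 163005 and 165259 in wild-type and 168287 and 169897 in the Bmal1-/- libraries, Dppa5a being the most abundant; 4 were higher, 5 lower and 1 not called. Fibroblast markers were low, with sums of 69.5 and 75.4, then 108 and 97.3; Lum and Dcn were at 0 in all libraries, and of 2 tested genes 1 was higher (Thy1, the most abundant). Of 5 neural markers tested 2 were lower and 0 higher, with sums of 4027 and 3777, then 2258 and 2126, of which Tubb3 was the most abundant (log2 fold change −1.22), while Fabp7 and Dcx were at 0.

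Trophoblast markers had sums of 1518 and 1532, then 629 and 606, with Tfap2c the most abundant and 2 of 3 tested genes lower. The primed epiblast sums were 2645 and 2449, then 2069 and 2166, nearly all from Dnmt3b, the only one tested and lower, with Pou3f1 at 0. Primitive endoderm sums were alike in all libraries, between 171 and 195, with Gata4 the most abundant, but their members moved in opposite directions. Of 4 tested genes 2 were higher and 1 lower, with Sox17 (log2 fold change 1.27) and Sox7 (−2.41) past 2-fold. Markers of the two-cell-like state moved most. All 4 that were tested of 6 listed were higher, with sums of 134 and 156 in wild-type and 1868 and 1793 in the Bmal1-/- libraries, and Zscan4c was the most abundant. These markers moved with the genotype, as the positive-limb genes did, and their part in the results on Arntl2, Clock and Npas2 was not tested.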

How the data were processed

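The authors sequenced stranded mRNA libraries with paired 75-bp reads; the submitters' processing notes name bcl2fastq 2.18.0.12, cutadapt 1.9.1, STAR 2.5.2b and mm9. The signal deposited by the authors is a read count per gene divided by 1 scaling factor of the library (trimmed mean of M values, TMM). Within 0.01 of a read, 100% of values were whole multiples of the lowest, so reads were recovered: 21737170 and 21504265 in wild-type, 23329034 and 23021702 in the Bmal1-/- libraries. A floor of 3 reads equals values of 2.82 to 3.19; floors and intervals cover counting error only.

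Genes whose mean reached 10 or more (14510) were fitted with limma 3.58.1 (R 4.3.3; intensity trend, 2-sided, no covariate) on log2(value + 1), with Benjamini-Hochberg adjustment over all genes tested. The limma prior on the variance had 18.1 degrees of freedom. Much of the spread used for each gene was thus taken from other genes of like level. On the recovered reads, edgeR 4.0.16 called 7682 genes and DESeq2 1.42.0 called 5226. The tests were tried on simulated data. Alternatives were other filters, pseudocounts, scalings, lengths and tests, a replicate block and each library left out. Genes named are the 4 members, listed genes past the test and some that were not called or lay under the filter (some listed genes are not reported here), the 3 nearest patterns and the 3 coding genes on each side. The members and lists were chosen with earlier results of these data known. The split of genes at a mean of 100, the percentiles and the searches of promoters and shared windows were added after the values had been seen, and carry no test. All 37310 IDs matched the GENCODE annotation of NCBIM37. Among the listed genes, 6 were matched by an older symbol and 2 (Tcstv1 and Tcstv3) were not matched. The marker symbols Pou3f1 and Dab2 had 2 IDs each, and the values of the other ID were left out. Guide sequences came from the study's supplement. Python 3.11.15 with pandas 2.3.3, scipy 1.17.1 and matplotlib 3.10.9 was used.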

Additional observations from a re-analysis of the deposited data

How the results depend on the processing

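The calls of Arntl, Clock and Npas2 kept their direction and an adjusted p-value under 0.05 in all alternatives in which they could be tested (16, 16 and 15). The highest adjusted p in limma was 0.048 for Arntl and 0.039 for Clock, both without the trend. For Npas2 it was 0.028, with no filter on low values. The call of Arntl was thus kept narrowly, also in DESeq2 (adjusted p = 0.035). Npas2 and Arntl2 could not be tested with a mean of at least 100. Arntl2 kept its direction, but its adjusted p-value was above 0.05 in limma when low values were not filtered or the mean had to reach 1 (log2 fold change 0.77 for both), without the trend (0.77), with quantile normalization (0.51) and in DESeq2 (0.86); leaving out 1 library at a time, it lay between 0.49 and 1.06. The cause was not tested. Genes with an adjusted p-value under 0.05 numbered 5060 without the trend, and genes past 2-fold 318 with a mean of at least 100, where fewer genes were tested. No alternative reversed the direction of a ratio to Arntl.

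The numbers 1 and 2 of the cultures are shared by the genotypes, but same-numbered libraries did not deviate together (correlation −0.02 across genes). With the replicate number as a block, 7949 genes were called in place of 7639, and the log2 fold changes of the 4 genes did not change. For the 26 listed genes called, 413 fits under alternatives gave 375 with the call as reported, 38 without it and 0 with the opposite direction. Arntl2 and Npas2 had only 16 to 63 reads per library, and whether depth limits their results was not tested. A lone library, where its replicate was left out, was assumed to vary like the others.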
